A study of Arabidopsis thaliana with 18 samples.

Results

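Arabidopsis root cells sorted from the enhancer trap line J0571 and carrying an inducible TMO5 were compared after 2 h with and without dexamethasone (DEX). The comparison was defined by the sample labels and chosen with earlier results of these data known. It sets the J0571 DEX group against the J0571 control group, 3 arrays each, 6 of the 18 arrays of the series. Each array reports 38408 features (Affymetrix probe sets), and features with identical values on every array were counted once, which leaves 32879 distinct features. Of all features, 16722 are named for exactly 1 gene.

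TARGET OF MONOPTEROS 5 (TMO5) belongs to the bHLH (basic helix-loop-helix) family of transcription factors and is active in young vascular tissue. It works as a dimer with LONESOME HIGHWAY (LHW), and the pair is known for driving the divisions that widen the vascular bundle, in part through local cytokinin synthesis. TMO5-GR is its fusion to the hormone-binding part of the glucocorticoid receptor, which is held in the cytoplasm until DEX lets it enter the nucleus. J0571 is a GAL4 enhancer trap line in which GAL4 and GFP are made in the ground tissue of the root, the cortex and endodermis, a place where TMO5 itself is not known to act. The comparison therefore asks which transcripts follow TMO5-GR activation in cells outside the vascular bundle.

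All groups used here came from seedlings 4 days old. J0571 DEX and J0571 control cells carried J0571>>pUAS-TMO5-GR in the C24 ecotype. They were taken after 2 h on medium with DEX (J0571 DEX) or on MS medium alone (J0571 control), and roots of both groups were turned into protoplasts and sorted for GFP. Root tips of plants carrying pRPS5A-TMO5-GR in Col-0, with a promoter active in dividing cells, serve as the comparison outside the sorted cells. They were taken after 1 h with DEX (root DEX), on MS alone (root MS), with DEX and cycloheximide, an inhibitor of protein synthesis (root DEX+CHX), or with cycloheximide alone (root CHX), 3 arrays each. Both lines carry the transgene in every group, and DEX on plants without it was not analysed here. The labels do not say whether the arrays of a group came from separate platings or sorts, so p-values measure the spread between these arrays, which may be technical.

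The sorted cells carried the transcripts of the labelled tissue as far as its markers could be measured. Of 16 ground tissue markers, 4 have a feature named for them alone, and all 4 were higher in J0571 control cells than in root MS in a limma fit of all 18 arrays. AT1G09750, the cortex marker PEP, had log2 signals of 10.11, 10.82 and 10.78 in J0571 control cells, against 6.74, 6.73 and 6.28 in root MS. The differences for JACKDAW (JKD), BIB and the cortex marker CO2 were 0.87, 0.58 and 0.73 log2. The root hair expansins EXPA7 and EXPA18 were lower in J0571 control cells by differences of -2.50 and -2.27 log2, as was the vascular factor PHV at -1.31 log2, whereas the phloem gene OPS differed by 0.14 log2 (adjusted p = 0.62). These values have to be read against a background in which 51.6% of all distinct features differed between J0571 control and root MS (30.8% higher and 20.8% lower in J0571 control), 2 sets of samples that also differ in ecotype, construct, time, protoplasting and sorting. No root cap marker of 5 had a named feature. Neither TMO5 nor the fusion protein could be followed, because no feature is named here for TMO5 alone.

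The arrays of a group correlated at r = 0.986 to 0.993 over the distinct features, across features and not across samples. J0571 control replicate 3 stood apart on the first principal component of the 6 arrays, which held 33.0% of the variance. J0571 control replicates 1 to 3 lay at -25.4, -5.18 and 49.2, and J0571 DEX replicates 1 to 3 at -29.9, 4.06 and 7.23. In both groups the position rose with replicate number. Results are also given without J0571 control replicate 3, the array farthest from the others. The median log2 change of all distinct features was -0.00, and the middle 95% of them lay between -0.49 and 0.44.

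Few features passed between J0571 DEX and J0571 control cells, and nearly all of those that did were increases. With the 6 J0571 arrays in limma and Benjamini-Hochberg adjustment over all distinct features, 12 of 32879 (0.0365%) passed an adjusted p under 0.05. Of these, 11 were higher with DEX (0.0335%) and 1 was lower (0.00304%). They stand for 15 features of the array, since some are deposited in copies. Only 3 of the 12 are named for a single gene: AT4G38650 and AT1G28160 rose, and AT2G34655 fell. Before adjustment, 2142 features (6.51%) had p under 0.05, 965 higher (2.94%) and 1177 lower (3.58%). Without J0571 control replicate 3 again 12 features passed, 10 of them shared with the 12 above. With replicate number as a block in the limma fit, 0 passed.

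AT4G38650, which encodes a glycosyl hydrolase of family 10, a class that cleaves the backbone of xylan in plant cell walls, had the largest named increase. Its log2 signals were 8.73, 8.43 and 8.52 in J0571 DEX cells, against 5.26, 5.12 and 5.52 in J0571 control cells. The groups lay far apart relative to their spread, 8.56 ± 0.15 in J0571 DEX cells against 5.30 ± 0.20 in J0571 control cells (mean ± SD, n = 3 each). The change was 3.26 ± 0.14 log2 (SE), or 9.58-fold, with a limma adjusted p of 0.00187. Without J0571 control replicate 3 it was 3.37 log2, and the gene passed whichever of the 6 arrays was left out. With replicate number as a block in the 6-array fit it did not pass in limma.

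AT1G28160 encodes a DNA-binding protein of the ERF/AP2 family, the plant family that includes ethylene response factors. Its log2 signals were 7.66, 8.10 and 7.80 in J0571 DEX cells, against 5.14, 5.58 and 5.77 in J0571 control cells. All DEX arrays were above all control arrays, by 2.35 ± 0.20 log2 (5.11-fold, limma adjusted p = 0.0265). AT2G34655 was the only feature of the 12 that fell, with log2 signals of 3.98, 4.18 and 4.00 in J0571 DEX cells, against 5.56, 5.66 and 5.83 in J0571 control cells. Again the groups did not overlap, and the change was -1.63 ± 0.12 log2 (limma adjusted p = 0.0147). Both genes depend on 5 of the 6 arrays in this fit. Without J0571 control replicate 3 they still passed, with changes of 2.49 and -1.56 log2, and with any of the other 5 arrays left out they did not, at adjusted p-values of up to 0.203 and 0.169.

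The other 9 features that passed are not named for any gene, and all of them rose. Only identical features were merged, so whether the 9 stand for separate transcripts is not known here. Features 13545473 and 13545479 had close means, 8.75 and 8.59 in J0571 DEX cells, against 6.01 and 6.12 in J0571 control cells. Changes of the 9 ran from 1.13 to 4.15 log2, with adjusted p-values of 0.00187 to 0.0434. Mean signals of these 9 lay between 4.71 and 10.6 in J0571 DEX cells, against 3.1 to 6.80 in J0571 control cells. Feature 13545421, deposited in 3 identical copies, had the largest increase of all: 10.71, 10.52 and 10.43 in J0571 DEX cells, against 6.39, 6.03 and 6.78 in J0571 control cells. Feature 13433216 had 8.63, 8.59 and 8.47 in J0571 DEX cells, against 5.95, 6.15 and 6.16 in J0571 control cells. The control arrays of 13433216 were the low ones of the whole series for it, as its log2 signal was 8.88, 8.80 and 8.75 in root DEX and 8.79, 8.88 and 8.65 in root MS. Feature 13545569 was alike, with means of 6.15 in J0571 control cells, 8.02 in J0571 DEX cells, 8.19 in root DEX and 8.26 in root MS. Together with AT4G38650, features 13545421 and 13433216 were the 3 features that passed with each of the 6 arrays left out.

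**Figure D1:**
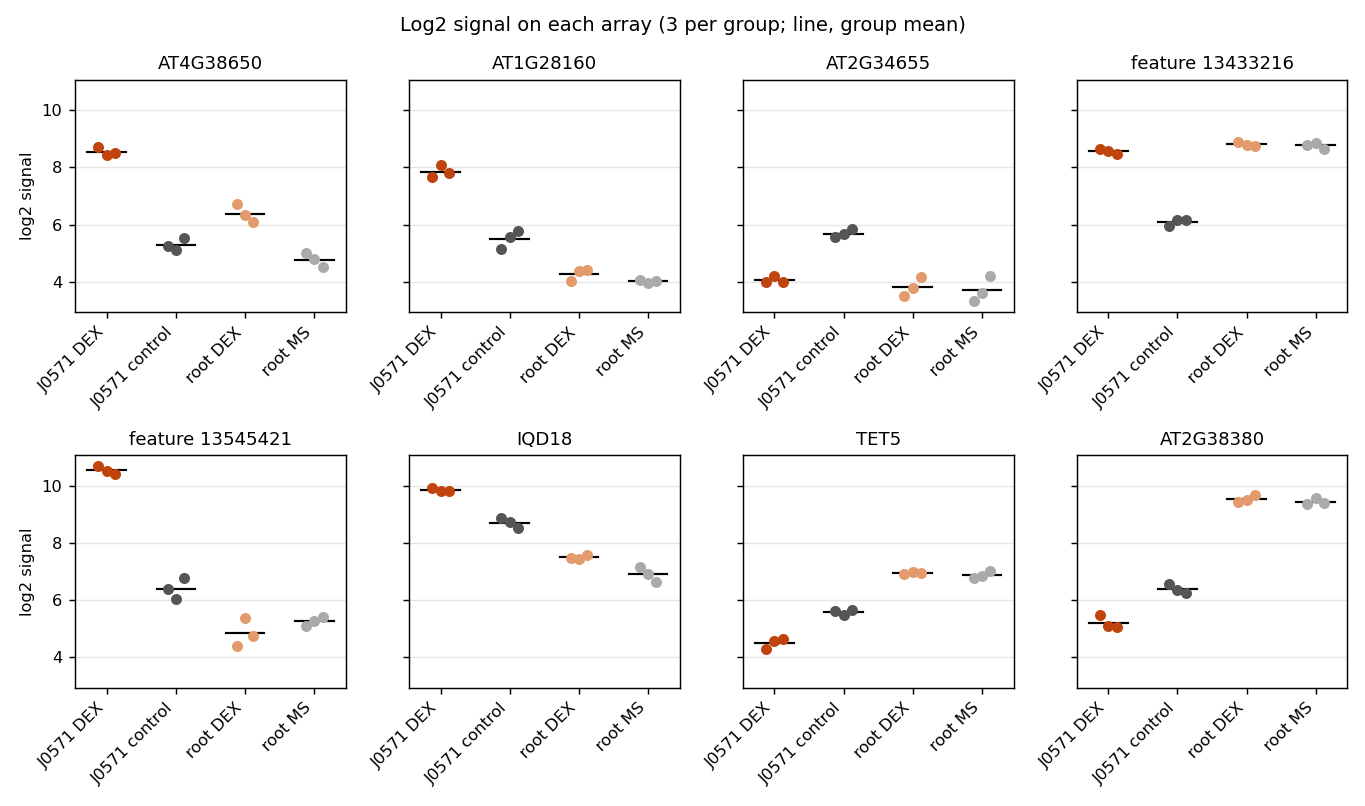
Log2 signal of 8 features on each array (vertical axis) in J0571 DEX, J0571 control, root DEX and root MS (horizontal axis); points are arrays, 3 per group, and lines are group means. In AT4G38650 the J0571 DEX arrays lie between 8.43 and 8.73 and the J0571 control arrays between 5.12 and 5.52, with root DEX between 6.08 and 6.72.

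**Figure D2:**
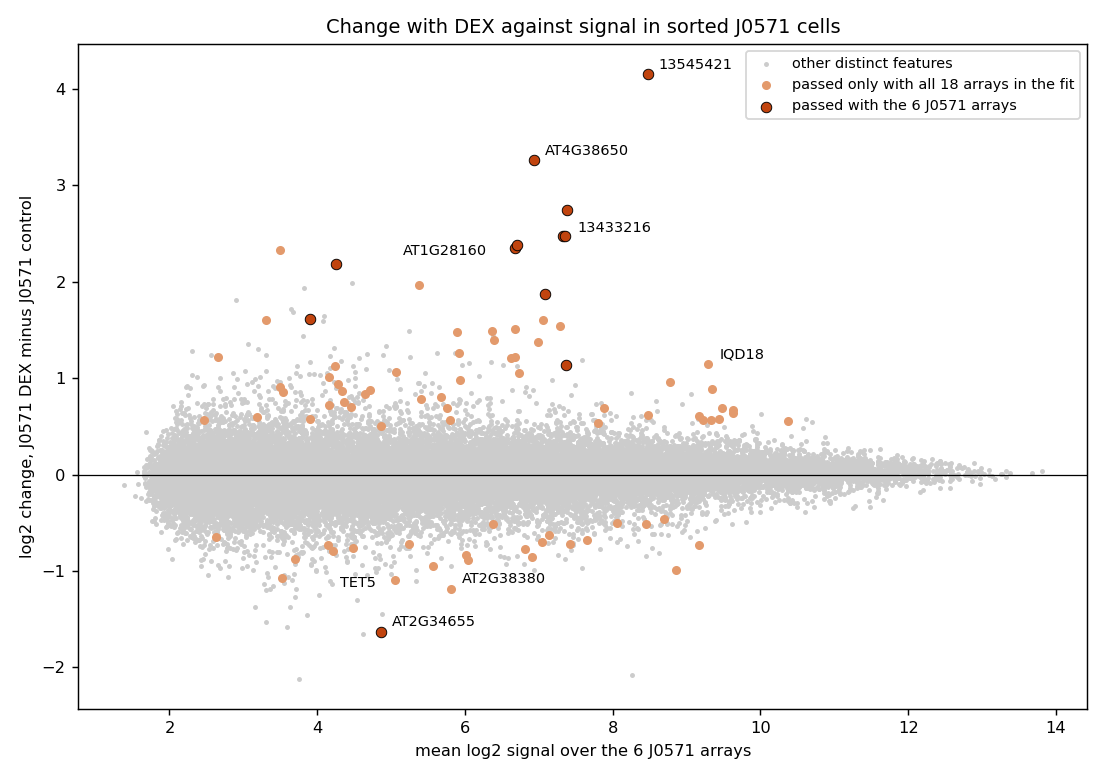
Log2 change, J0571 DEX minus J0571 control (vertical axis), against mean log2 signal over the 6 J0571 arrays (horizontal axis) for all 32879 distinct features. Dark points are the 12 features that passed with 6 arrays, light points those that passed only with all 18 arrays in the fit, and grey points the rest; 11 of the 12 dark points lie above 0.

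A second fit used all 18 arrays, so that the root arrays add to the estimate of each feature's spread, with 12 residual degrees of freedom in place of 4. It gives the same log2 changes for the J0571 groups and assumes that sorted cells and root tips scatter alike. In it 86 features passed (0.262%), 61 higher with DEX (0.186%) and 25 lower (0.076%), all 12 above among them. The J0571 DEX and J0571 control arrays did not overlap in any of the 86, beside 12.4% of all distinct features without overlap. A low p from these same arrays tends to go with separation, so this adds no support. Of the 86, 37 are named for 1 gene, of which 27 rose and 10 fell, and 12 of the 37 changed by 2-fold or more. For comparison, 87 distinct features (0.265%) moved 2-fold or more with groups that did not overlap, whatever their p.

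**Figure D3:**
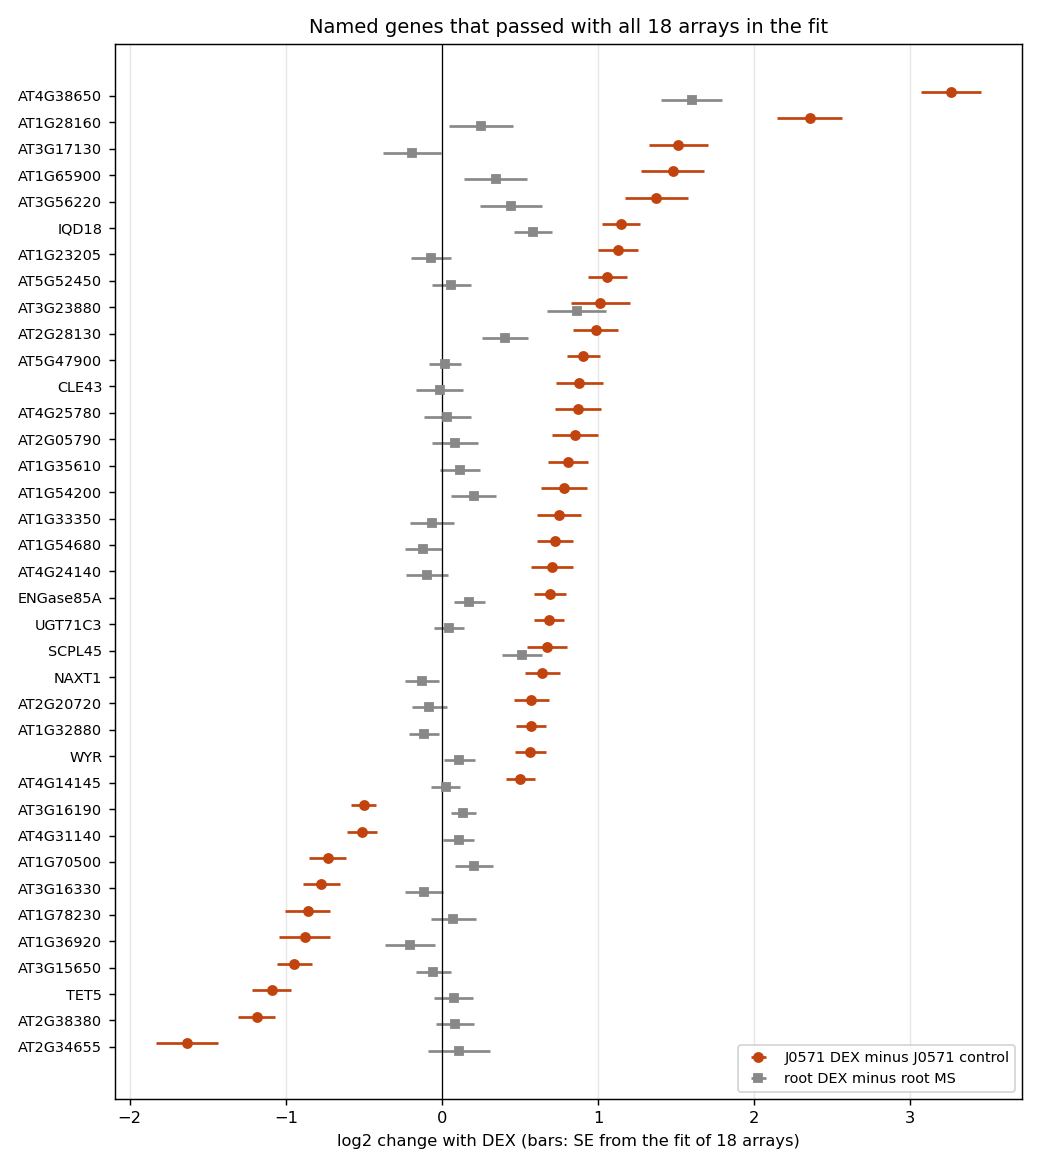
Log2 change with DEX (horizontal axis) of the 37 named genes that passed with all 18 arrays in the fit, in J0571 cells (circles, J0571 DEX minus J0571 control) and in root tips (squares, root DEX minus root MS); bars are the SE of that fit. The J0571 changes run from 3.26 in AT4G38650 to -1.63 in AT2G34655, and most root changes lie near 0.

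How firmly these genes stand was checked by refitting with each of the 6 J0571 arrays left out, a check chosen after seeing the data. Of the 37, 15 passed in all 6 refits, 11 that rose and 4 that fell. J0571 DEX replicate 2 mattered most: without it 42 features passed in place of 86. Besides the 3 genes above, the 15 comprise IQD18, TET5, AT2G38380, AT3G17130, AT1G23205, AT5G52450, AT3G15650, AT3G56220, AT1G65900, AT5G47900, ENGase85A and UGT71C3. The adjusted p-values given for them next are from the fit of 18 arrays, and the order in which the genes are described was chosen after the values were seen.

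AT3G17130 and AT1G23205 both encode members of the pectin methylesterase and invertase inhibitor class, small secreted proteins that can block pectin modification. AT3G17130 had log2 signals of 7.26, 7.50 and 7.54 in J0571 DEX cells, against 5.69, 5.74 and 6.32 in J0571 control cells, and AT1G23205 had 4.55, 4.85 and 4.99 in J0571 DEX cells, against 3.43, 3.71 and 3.88 in J0571 control cells. Both rose, by 1.51 ± 0.19 log2 (adjusted p = 0.00105) and 1.13 ± 0.17 log2 (adjusted p = 0.000486). The SE values are those of the 6-array fit, in which neither passed. AT2G38380, a class III peroxidase of the kind secreted into the wall, fell by 1.19 log2 with 5.48, 5.10 and 5.08 in J0571 DEX cells, against 6.58, 6.38 and 6.25 in J0571 control cells (adjusted p = 0.000141). TET5, a tetraspanin of the plasma membrane, fell by 1.09 log2 with 4.30, 4.56 and 4.64 in J0571 DEX cells, against 5.63, 5.49 and 5.66 in J0571 control cells (adjusted p = 0.000486). In both, each DEX array lay below each control array.

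IQD18 had the highest signal of the genes that rose 2-fold or more. It belongs to the IQ67-domain proteins, which bind calmodulin and associate with microtubules. Its log2 signals were 9.94, 9.82 and 9.84 in J0571 DEX cells, against 8.89, 8.73 and 8.55 in J0571 control cells, a rise of 1.15 log2 (adjusted p = 0.000222). In the 6-array fit it narrowly missed the threshold, with an adjusted p of 0.0725.

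AT5G52450, a transporter of the MATE class, rose by 1.06 log2, with 5.47, 5.71 and 5.59 in J0571 DEX cells and 4.71, 4.32 and 4.56 in J0571 control cells (adjusted p = 0.000723). UGT71C3, a glycosyltransferase that attaches sugars to small molecules, rose by 0.69 log2, with 8.15, 8.38 and 8.17 in J0571 DEX cells and 7.59, 7.41 and 7.64 in J0571 control cells (adjusted p = 0.00331). ENGase85A, which removes N-glycans from proteins, rose by 0.69 log2, with 9.83, 9.84 and 9.82 in J0571 DEX cells and 9.15, 9.33 and 8.93 in J0571 control cells (adjusted p = 0.00605). In these 3 genes the groups were separated, and the DEX arrays of ENGase85A scattered least (SD 0.01). AT3G15650, of the alpha/beta hydrolase class, fell by 0.95 log2, with 5.20, 4.99 and 5.11 in J0571 DEX cells and 6.08, 6.12 and 5.93 in J0571 control cells (adjusted p = 0.000667).

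For the last 3 of the 15 no role is stated here. AT1G65900 had log2 signals of 7.01, 6.62 and 6.27 in J0571 DEX cells, against 5.37, 5.43 and 4.67 in J0571 control cells, a rise of 1.48 log2. AT3G56220 had 7.86, 7.67 and 7.51 in J0571 DEX cells, against 6.73, 6.30 and 5.88 in J0571 control cells, a rise of 1.37 log2. In both genes the control group and the DEX group were each lowest in replicate 3. Without J0571 control replicate 3 alone the changes were 1.23 and 1.16 log2. AT5G47900, a dim feature, rose by 0.91 log2, with 4.19, 3.88 and 3.77 in J0571 DEX cells and 3.02, 3.06 and 3.03 in J0571 control cells. Only 24.6% of distinct features were dimmer than it in J0571 control cells.

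The other 22 named genes lost the threshold in at least 1 refit, and their changes ran from -0.88 to 1.01 log2. AT1G35610, AT2G28130 and AT3G16330 did so only without J0571 DEX replicate 1 (AT1G35610) or replicate 2 (the other two). AT2G28130 changed by 0.98 log2, AT1G35610 by 0.81 log2 and AT3G16330 by -0.77 log2. AT2G05790, a family 17 glycosyl hydrolase of the class of beta-1,3-glucanases that act on callose, changed by 0.85 log2. AT1G70500, of the pectin lyase-like class, changed by -0.73 log2. AT4G24140, a relative of the cuticle gene BODYGUARD, changed by 0.70 log2. AT4G31140, another family 17 glycosyl hydrolase, changed by -0.51 log2 and passed in none of the refits.

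CLE43, which encodes a secreted CLE signal peptide, had log2 signals of 5.06, 5.23 and 5.17 in J0571 DEX cells, against 4.06, 4.47 and 4.30 in J0571 control cells, a change of 0.88 log2. NAXT1, a nitrate excretion transporter, had 9.76, 10.03 and 10.05 in J0571 DEX cells, against 9.42, 9.15 and 9.35 in J0571 control cells, a change of 0.64 log2. The groups of both genes were separated, but CLE43 passed in 1 refit and NAXT1 in 2 of 6. WYR, an INCENP-like protein of the chromosomal passenger complex that acts in cell division, changed by 0.57 log2 and passed in 2 of 6. SCPL45, a serine carboxypeptidase-like enzyme, changed by 0.67 log2 and passed in 1 of 6. AT3G23880, an F-box protein, changed by 1.01 log2 and passed in 1 of 6.

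**Figure D4:**
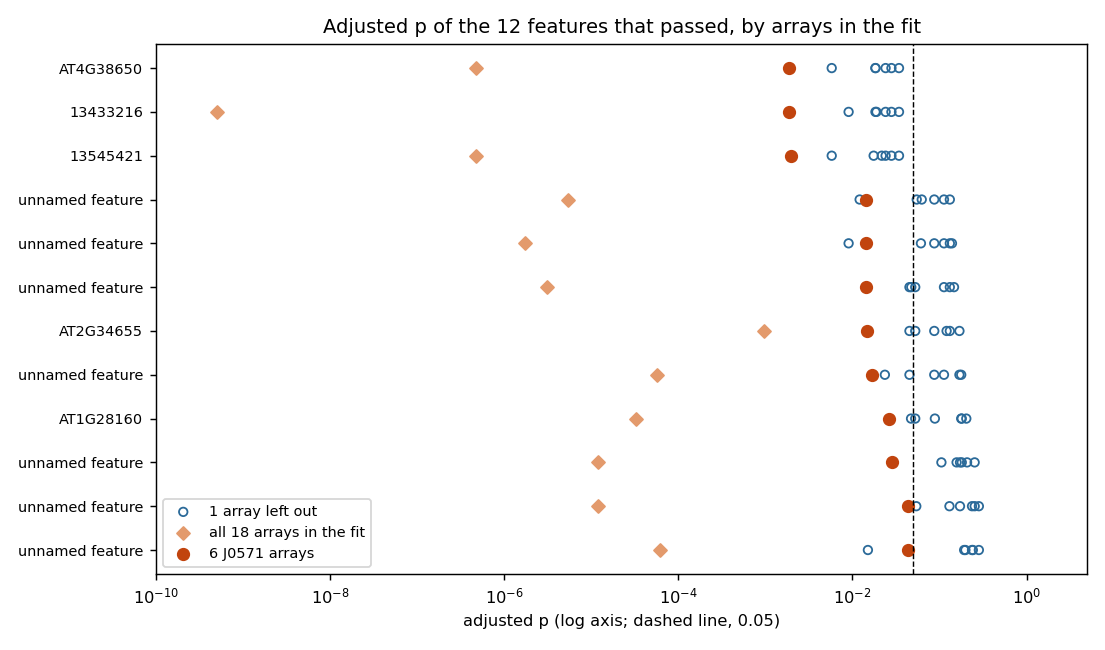
Adjusted p (horizontal log axis, dashed line at 0.05) of the 12 features that passed with the 6 J0571 arrays (filled circles), with each array left out in turn (open circles) and with all 18 arrays in the fit (diamonds). AT4G38650, 13433216 and 13545421 stay left of the line in every refit, and the other 9 cross it in at least 4 of 6.

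Ranking by size among separated genes of low unadjusted p picks out a partly different set. Among features named for 1 gene, 425 were higher and 492 lower with unadjusted p under 0.05 and groups that did not overlap. Of the 12 largest increases among them 9 passed in the fit of 18 arrays, and of the 12 largest decreases 6 did. Those that passed in neither fit are given as values only. AT3G46616 changed by 1.24 log2 with signals of 6.15, 5.15 and 5.24 in J0571 DEX cells and 5.13, 4.06 and 3.63 in J0571 control cells, so its gap between groups was far smaller than its spread. AT1G60110, a jacalin-type lectin, changed by 1.04 log2 and AT1G68620 by 1.00 log2. On the side of decreases were AT5G06890 at -1.25 log2, AT3G21670, a nitrate transporter of the NPF family, at -0.99 log2, and AT5G56325 at -0.96 log2 (-0.58 log2 without J0571 control replicate 3). AT1G31710, a copper amine oxidase, stood at -0.93 log2, with AT1G33090 and AT2G26380 both at -0.85 log2.

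Most genes known from TMO5 and LHW in the vascular bundle have no feature named for them alone, and those that do did not pass in these cells. Whether unnamed features stand for the others is not known here. The TMO5 and LHW family had 3 of 8 members with a feature, and 0 passed in either fit, with a median change of -0.29 log2 beside -0.00 over all distinct features. LHW, the dimer partner, had log2 signals of 8.33, 8.33 and 8.38 in J0571 DEX cells, against 8.71, 8.58 and 8.62 in J0571 control cells. These groups were separated by a small margin, as in 6.09% of all distinct features for decreases, with a difference of -0.29 ± 0.10 log2 (unadjusted p = 0.0188 and adjusted p = 0.674 in limma). AT2G41130, the TMO5 relative T5L3, had 5.38, 5.66 and 5.84 in J0571 DEX cells, against 6.06, 6.0 and 6.21 in J0571 control cells (-0.46 log2, unadjusted p = 0.0154 in limma), and AT3G56770 (T5L2) changed by -0.19 log2 with groups that overlapped.

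Of 11 reported TMO5-LHW targets, 3 had a feature and 0 passed. AT2G28510, the zinc finger factor DOF2.1, had log2 signals of 9.38, 9.32 and 9.40 in J0571 DEX cells, against 9.34, 9.32 and 9.35 in J0571 control cells. These arrays overlapped, and the change of 0.03 ± 0.09 log2 was smaller than its SE. AT5G09460 (SACL1) and AT5G50010 (SACL2), bHLH proteins of the SAC51 family reported to restrain the TMO5 and LHW dimer, changed by 0.20 and -0.13 log2, with groups that overlapped. In root tips these 3 targets averaged 8.94, 9.03 and 8.94 log2 in root DEX, against 8.46, 8.68 and 8.73 in root MS. With cycloheximide they averaged 9.68, 9.51 and 9.44 in root DEX+CHX, against 9.28, 9.21 and 9.39 in root CHX. These averages did not overlap and were not tested, and none of the 3 genes passed in root tips. For cytokinin, ARR16 and ARR15, 2 of the 10 type-A response regulators that the hormone induces, changed by 0.05 and -0.15 log2. None of the 19 genes of cytokinin synthesis and degradation and none of the 4 cell cycle genes on the list have a feature named for them alone, so they were not analysed here.

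Early auxin response genes had 9 of 17 members with a feature, and 0 passed in either fit. Of these, 8 lay below 0, where 50.3% of all distinct features did, with a median of -0.17 log2 beside -0.00. WES1 (GH3.5), which conjugates auxin to amino acids, had log2 signals of 7.81, 7.95 and 8.23 in J0571 DEX cells, against 8.49, 8.57 and 9.01 in J0571 control cells. LBD16, an auxin-induced factor of lateral root founder cells, had 8.02, 7.31 and 7.96 in J0571 DEX cells, against 8.51, 8.33 and 8.45 in J0571 control cells. Both pairs of groups were separated, with changes of -0.69 ± 0.18 and -0.67 ± 0.20 log2 and unadjusted p-values of 0.00679 and 0.0128 in limma. GH3.1 changed by -0.37 log2 and LBD29 by -0.34 log2, and GH3.4 was the 1 member above 0, at 0.19 log2. WES1 was highest in replicate 3 in the control group and in the DEX group, and without J0571 control replicate 3 alone its change was -0.53 log2.

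No cell type marker with a feature passed between J0571 DEX and J0571 control in either fit. PEP, JKD and BIB changed by 0.03, 0.12 and 0.03 log2, with groups that overlapped. AT1G62500, the cortex marker CO2, had log2 signals of 3.34, 3.22 and 3.21 in J0571 DEX cells, against 3.48, 3.88 and 3.87 in J0571 control cells (-0.49 log2, unadjusted p = 0.0106 in limma), and PHV had 5.13, 5.41 and 5.52 in J0571 DEX cells, against 5.90, 5.88 and 5.86 in J0571 control cells (-0.53 log2, unadjusted p = 0.00453 in limma). These 2 were lower with DEX without overlap, 1 of 4 ground tissue markers (25%) and 1 of 2 stele markers (50%), beside 6.09% of all distinct features. In sorted pools, fewer cells of a type and less RNA per cell cannot be told apart, and the part of cell composition in the changes above was not tested. EXPA7 and EXPA18 changed by -0.03 and -0.09 log2. STZ, the 1 stress gene of 17 with a feature, was higher in J0571 control than in root MS by 1.09 log2 and changed by 0.04 log2 with DEX.

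Gene families were taken by gene symbol, so members known here by locus number alone, such as AT1G28160 and AT2G38380, are not counted in them. No family had a member that passed with 6 arrays. In the fit of 18 arrays 1 of 14 IQ-domain proteins (IQD18), 1 of 51 UDP-glycosyltransferases (UGT71C3) and 1 of 7 serine carboxypeptidase-like proteins (SCPL45) rose, and 1 of 12 tetraspanins (TET5) fell, beside 0.186% of all distinct features higher and 0.076% lower in that fit. SCPL45 passed in only 1 of the 6 refits. Among the IQ-domain proteins, with a median of 0.06 log2, 4 of 14 were higher with DEX without overlap (28.6%, beside 6.27% of all distinct features). Of the 4, IQD29 and IQD31 changed by only 0.21 and 0.10 log2, with unadjusted p-values of 0.114 and 0.332 in limma. After IQD18, the next largest changes were -0.46 log2 in IQD24 (-0.27 log2 without J0571 control replicate 3) and 0.34 log2 in IQD16 (0.26 log2 without it). Tetraspanins had a median of -0.12 log2, with TET16 at -0.52 and TET2 at -0.48 log2 after TET5, and without J0571 control replicate 3 TET2 was at -0.22 log2.

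Wall-loosening families showed single members with moderate changes. Among 22 expansins, with a median of 0.03 log2, EXPA8 had log2 signals of 9.98, 10.40 and 10.60 in J0571 DEX cells, against 9.48, 9.62 and 9.98 in J0571 control cells. Its groups all but touched, and the change of 0.63 ± 0.20 log2 did not pass (limma adjusted p = 0.664). EXPA20 changed by 0.34 log2. Among 9 xyloglucan endotransglucosylase/hydrolases, XTH33 changed by 0.52 log2 and XTH21 by -0.53 log2, around a median of -0.02. The 8 cellulose synthase family members had a median of -0.04 log2, and 3 pectin methylesterases one of -0.07, with ATPMEPCRB at 0.45 log2. Glutathione S-transferases, 14 with a feature, had 11 members below 0 and a median of -0.13 log2, led by GSTU18 at -0.61 and GSTU20 at -0.55 log2. The 64 MADS box factors, 26 cytochrome P450 enzymes, 8 Aux/IAA proteins and 7 WRKY factors had medians of -0.08, -0.09, -0.02 and -0.16 log2, and none passed.

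**Figure D5:**
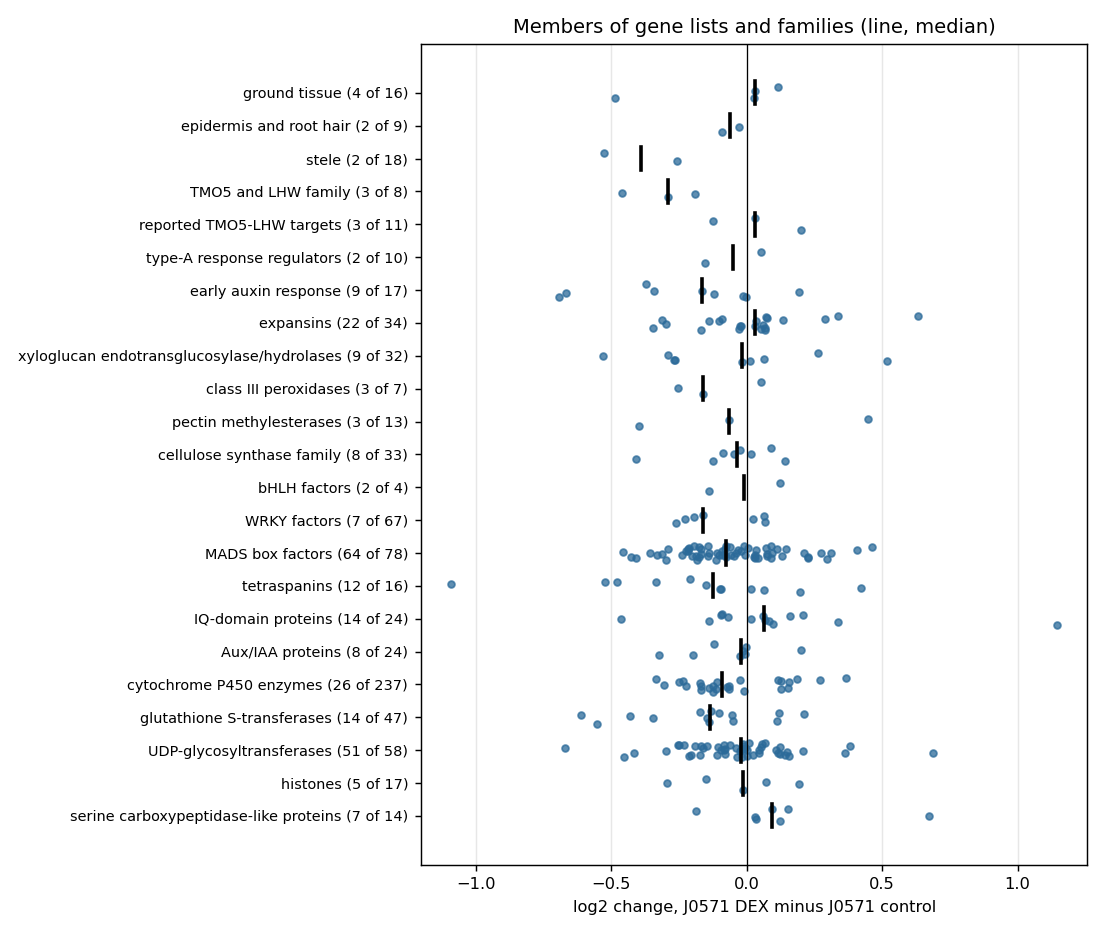
Log2 change, J0571 DEX minus J0571 control (horizontal axis), of each measured member of the gene lists and families (rows, with members measured of all members); points are genes and the black line is the median. Lists with 1 measured member are left out; TET5 at -1.09 and IQD18 at 1.15 log2 are the farthest from 0.

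Root tips offer arrays that had no part in measuring the J0571 changes, though they entered the spread of the 18-array fit. In that fit 1 feature passed for root DEX against root MS (0.00304%), and it was AT4G38650. Its log2 signals were 6.72, 6.32 and 6.08 in root DEX, against 5.01, 4.78 and 4.53 in root MS, and 5.91, 5.87 and 5.79 in root DEX+CHX, against 4.83, 5.05 and 4.30 in root CHX. The DEX arrays lay above their controls in both sets, by 1.60 ± 0.19 and 1.13 ± 0.19 log2. AT4G38650 was thus the gene with the largest named change in sorted cells and the 1 feature past the threshold in root tips. For root DEX+CHX against root CHX 0 features passed.

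Most of the 27 named genes that rose in J0571 cells lay on the same side in root tips. In root DEX, 18 of 27 were above root MS (66.7%, beside 48.9% of all distinct features), and in 7 of 27 the root DEX arrays lay above the root MS arrays without overlap, where 4.27% of all features did. Those 7 were AT4G38650, IQD18, AT3G23880, SCPL45, AT2G28130, AT1G65900 and ENGase85A. With cycloheximide, 21 of 27 were above root CHX (77.8%, beside 48.9%) and 7 of 27 without overlap, where 4.43% of all features were. AT4G38650, IQD18 and AT3G23880 were among the 7 both times. AT3G23880 had log2 signals of 4.74, 4.79 and 4.49 in J0571 DEX cells, against 3.49, 3.85 and 3.63 in J0571 control cells. In root tips it had 5.14, 4.37 and 4.55 in root DEX, against 3.6, 3.88 and 3.99 in root MS. In the fit of 18 arrays the changes were 1.01 ± 0.19 log2 in J0571 cells and 0.86 ± 0.19 log2 in root tips, where it did not pass (adjusted p = 0.379). IQD18 had 7.47, 7.45 and 7.58 in root DEX, against 7.17, 6.93 and 6.64 in root MS, a change of 0.58 ± 0.12 log2 (adjusted p = 0.379).

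The 10 named genes that fell in J0571 cells did not show this. In root DEX 3 of 10 were below root MS and 0 of 10 without overlap, where 4.79% of all features were, and with cycloheximide 3 of 10 were below root CHX and 1 of 10 (AT3G15650) without overlap, where 4.94% were.

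The difference between the J0571 response and the root DEX response was tested in the fit of 18 arrays, and 19 features passed (0.0578%), 16 with a J0571 change above the root change (0.0487%) and 3 with one below it (0.00912%). The tests share the J0571 arrays that chose the genes above, so the counts are not independent of them. Named genes that passed were AT4G38650, AT1G28160, AT3G17130, AT1G23205 and AT5G47900 on the upper side and AT2G34655, TET5 and AT2G38380 on the lower. AT1G28160 had log2 signals of 4.02, 4.36 and 4.40 in root DEX, against 4.05, 3.94 and 4.04 in root MS, which overlap, so the J0571 change exceeded the root change by 2.1 ± 0.29 log2 (limma adjusted p = 0.0109). AT2G38380 had 9.43, 9.50 and 9.68 in root DEX, against 9.38, 9.57 and 9.41 in root MS, a difference of responses of -1.27 ± 0.17 log2 (limma adjusted p = 0.00757). Line, promoter, ecotype, time of treatment, protoplasting and sorting all differ between the J0571 and the root arrays and cannot be told apart.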

How the data were processed

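Whole-transcript cDNA was made from total RNA, labelled with biotin and hybridised to Affymetrix gene arrays, per the labels' protocols. The deposited values are log2 signals that the authors made with RMA, per the submitters' processing notes. RMA corrects background, equalises the distributions of the arrays by quantiles and summarises the probes of a feature. The RMA version, the genome build and whether J0571 and root arrays were processed in 1 run were not given in the sources used here. Precision is limited by the number of arrays, and dim features approach background. No genome build is named, so no positions are printed.

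Genes were named where the platform's annotation gives exactly 1 gene (16722 of 38408 features, 759 with several genes and 20927 unnamed). Of the 16722, 16574 were linked by Entrez identifier to TAIR10.1. Of features with identical values on all arrays 1 was kept. Log2 values were fitted as given with limma 3.58.1 in R 4.3.3 (data.table, version 1.17.8), with 1 mean per group, eBayes, two-sided tests and Benjamini-Hochberg adjustment over 32879 distinct features. The main fit holds the 6 J0571 arrays, and the other all 18. Named are features that pass in the main fit, 1-gene features that pass with 18 arrays, the 12 largest increases and decreases described in the text, and up to 4 members per list. Where features share a gene, the brightest on average stands for it. The comparison, the lists and these rules were chosen with earlier results of these data known. Alternatives were the 18 arrays, each array left out, a replicate block, quantile normalization, equal medians, trend and robust options, array weights, all features, 1-gene features and the dimmest 25% left out. Data were simulated with the spread of the J0571 comparison (32879 features, 200 of them changed). On them this fit recovered 66% of 2-fold, 98% of 4-fold and 100% of 8-fold changes, with 24 false calls. Even if all 200 changed features had been called, 24 false calls would be a larger share of the calls than the adjusted p threshold of 0.05. The simulation therefore does not show that false calls were held to that threshold, and their share in the real data was not tested. Only 12 features passed in the real data, where the adjustment was therefore stricter, so the recovered shares do not give the power there. A planned search of promoters for bHLH motifs was not run, because no sequence was at hand, and families were taken from gene symbols, since the reference table gives no descriptions.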

Additional observations from a re-analysis of the deposited data

Results flagged for a closer look

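The test of a difference between the DEX response in sorted J0571 cells and that in root tips, in limma over all 18 arrays, was passed by 8 genes and by 11 features not named for 1 gene. Those 11 include all 9 such features that passed with the 6 J0571 arrays, of which 2 are given here. The J0571 change exceeded the root change by 4.58 log2 for feature 13545421, 2.44 for feature 13433216, 2.1 for AT1G28160, 1.70 for AT3G17130, 1.66 for AT4G38650, 1.19 for AT1G23205 and 0.887 for AT5G47900. It lay below the root change for AT2G34655 at -1.74 log2, AT2G38380 at -1.27 and TET5 at -1.17. AT4G38650 is the 1 gene of these that passed in root tips as well, so its difference is one of size, 3.26 log2 in J0571 cells against 1.60 in root tips. The calls for AT1G28160 and AT2G38380 held under all alternatives run for this difference, and those for the other 6 named genes did not. Groups of 3 arrays are too small for a test of single outlying arrays.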

How the results depend on the processing

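The count of 12 features between J0571 DEX and J0571 control became 86 with all 18 arrays in the fit, 20 with array weights and 3 when only features of 1 named gene were tested, the same 3 genes. It ran from 3 to 12 with 1 array left out: 6 without control replicate 1, 5 without DEX replicate 1, and 3 when control replicate 2, DEX replicate 2 or DEX replicate 3 was missing. With replicate number as a block 0 passed in limma (2939 at an unadjusted p under 0.05), and no other tool was run. AT4G38650 then had an adjusted p of 0.0904. Same-numbered J0571 arrays deviated together with r = 0.300, 0.0453 and 0.180, and differently numbered ones with r from -0.249 to 0.113. DEX replicates 1 and 3 correlated best with the control of their own number, and DEX replicate 2 with control replicate 3. The labels do not say whether same-numbered arrays were handled together, and this was not settled here. The 12 calls thus depend on treating the arrays as unpaired. In the fit of 18 arrays the count ran from 42 to 109 with 1 array left out (42 without J0571 DEX replicate 2), and the block gave 125, 60 higher and 65 lower in place of 61 and 25. The count of 19 differences from the root response was 8 over features of 1 named gene and ran from 9 to 25 with 1 array left out (9 when root DEX replicate 2 or 3 was missing, 11 when root MS replicate 1 or the second array of either J0571 group was, and 12 when J0571 control replicate 1 was). The cause of these shifts was not tested, other than that fewer features or arrays enter some fits. No named gene changed direction under any alternative run. List medians moved beyond the spread between arrays in 20 of 405 recomputations. Leaving out the dimmest 25% of features gave the same 12.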

Other observations

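The 37 named genes that passed with 18 arrays lay on both sides of the root level in untreated sorted cells. In J0571 control, 16 of the 37 had a higher signal and 11 a lower signal than in root MS with an adjusted p under 0.05 in limma, beside 30.8% and 20.8% of all distinct features. Among the lower ones, AT2G38380 had log2 signals of 6.58, 6.38 and 6.25 in J0571 control cells, against 9.38, 9.57 and 9.41 in root MS, and it was lower still with DEX. TET5 had 5.63, 5.49 and 5.66 in J0571 control cells, against 6.78, 6.84 and 7.04 in root MS. IQD18 ran the other way, with 8.89, 8.73 and 8.55 in J0571 control cells, against 7.17, 6.93 and 6.64 in root MS, and was higher still with DEX.

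Features not named for 1 gene were 9 of the 12 that passed with 6 arrays (75%) and 49 of the 86 with 18 arrays (57.0%), beside 49.2% of all distinct features. The 49 were 34 higher and 15 lower, with changes from -1.08 to 4.15 log2 (1 of the 49 is named for several genes). Feature 13545421 was at 4.39, 5.39 and 4.74 in root DEX, against 5.09, 5.27 and 5.43 in root MS, with groups that overlapped.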
